A study of Mus musculus with 12 samples.

Results

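Transcripts of 72 histone genes were followed in HT22 cells, among 11924 genes that passed the filter on low values. The members were chosen by symbol: names that begin with Hist1h, Hist2h, Hist3h, Hist4h, H2af or H3f3, or H1f0, kept where 3 or more of the 12 libraries reached 0.5 FPKM. FPKM scales the fragments of a gene to its transcript length and to the library's size. The length used for each gene is not given. The longest annotated coding models of the members run from 312 bases (Hist1h4k) to 7425 (Hist1h1d). Sums, shares and ranks across genes therefore depend on the lengths used. Of 81 such symbols, 9 did not pass (H2afb1, H2afb2, H2afb3, H2afy3, Hist1h2aa, Hist1h4m, Hist2h2aa2, Hist2h3c1 and Hist3h2bb-ps). The 72 members comprise 63 genes of the histone clusters and 9 replacement variants, a division made by symbol alone. The cluster genes encode H1 (6 genes), H2A (16), H2B (18), H3 (11) and H4 (12), and 52 of them belong to the Hist1 cluster. The replacement variants are H1f0, H2afj, H2afv, H2afx, H2afy, H2afy2, H2afz, H3f3a and H3f3b. All 9 replacement variants and 55 of the 63 cluster genes were at or above the filter in every library, and 0 members passed through the libraries of a single group.

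Replication-dependent histone genes are transcribed in S phase, when new DNA has to be packed into nucleosomes. Their mRNAs mostly have no introns and typically end in a conserved stem-loop in place of a poly(A) tail. The stem-loop is bound by the stem-loop binding protein SLBP, and the mRNAs are degraded when DNA synthesis stops. Replacement variants such as H3.3 (H3f3a and H3f3b), H2A.Z (H2afz and H2afv) and H1.0 (H1f0) are mostly made from polyadenylated mRNAs, many of them spliced. They are made throughout the cell cycle and are placed into chromatin independently of replication.

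HT22 is a single immortalized mouse line that the labels describe as hippocampal neurons. The 12 libraries formed 4 groups of 3 libraries, which the titles number as biological replicates. All cells were transfected with siRNA in liposomes, either control siRNA (siControl) or siRNA against Ncoa4, the cargo receptor for ferritin turnover (siNCOA4). Of each, 1 group was kept at normal iron and 1 received the iron chelator deferoxamine (DFO) at 100 µM for 24 h (siControl+DFO and siNCOA4+DFO). Libraries were made from total RNA without poly(A) selection, so that mRNAs without a tail were captured. The p-values measure the spread between these replicates of 1 cell line.

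Ncoa4 lay at 6.02 to 6.46 FPKM in siControl and 7.52 to 8.70 in siControl+DFO, and at 0.770 to 0.952 in siNCOA4 and 0.850 to 1.57 in siNCOA4+DFO. The groups with Ncoa4 siRNA lay below the others in every library. Of 10 neuronal markers, 2 had a mean of at least 0.5 FPKM in every group (Tubb3 and Syn1), while Rbfox3, Map2, Dcx, Nefl and Snap25 were at or near 0. All 5 fibroblast or mesenchymal markers were expressed, and their summed FPKM was 4839 to 5450 in siControl, 4285 to 4730 in siNCOA4, 2695 to 2754 in siControl+DFO and 2463 to 2929 in siNCOA4+DFO. Relative depth, read from the smallest steps between FPKM values, ran from 0.928 to 1.41 times that of siControl replicate 1. The total number of reads cannot be recovered from the tables. In bulk RNA, fewer cells in S phase and less histone mRNA per cell cannot be told apart.

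Within siControl, replicate 1 stood apart for the cluster genes. It was the highest of the 3 siControl libraries for 59 of 63 cluster genes, against 43.1% of all genes tested, with a median ratio of 1.44 to the mean of the other 2 libraries (1.02 over all genes). For the replacement variants it was highest in 3 of 9. It also had the lowest relative depth of the siControl libraries. The class sums of the cluster genes relative to siControl are given with and without it. Other values include it unless stated.

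The stem-loop is shown for 1 member of each cluster class and for H2afx, because it is typical of replication-dependent mRNAs. In the annotated model, the bases that follow it number 840 (Hist1h1c), 11 (Hist1h2ab), 23 (Hist1h2bb), 752 (Hist1h3d), 770 (Hist1h4d) and 822 (H2afx). Capitals mark the 16 bases of the stem-loop, with 5 bases on either side in lower case, in the direction of the transcript (GRCm38, GENCODE M21 transcripts).
Hist1h1c, chr13:23739507-23739532, plus strand: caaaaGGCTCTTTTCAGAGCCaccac
Hist1h2ab, chr13:23751567-23751592, plus strand: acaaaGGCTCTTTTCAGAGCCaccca
Hist1h2bb, chr13:23747198-23747223, plus strand: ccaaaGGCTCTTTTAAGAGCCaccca
Hist1h3d, chr13:23576239-23576264, plus strand: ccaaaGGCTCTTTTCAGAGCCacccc
Hist1h4d, chr13:23581945-23581970, plus strand: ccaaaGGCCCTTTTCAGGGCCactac
H2afx, chr9:44335235-44335260, plus strand: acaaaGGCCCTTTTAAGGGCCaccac

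The pattern GGNNNTNNTNANNNCC, where N is any base and the outer 6 bases on either side pair (G with T allowed), was searched on the transcript strand. It was found in the annotated coding transcript of 43 of 63 cluster genes and of 1 of 9 replacement variants, H2afx, which encodes the H2A.X variant marked at DNA breaks. The same pattern occurs anywhere in a coding transcript of 337 of 21877 protein-coding genes (1.54%). The commonest form, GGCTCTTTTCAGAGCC, was present in 24 members. Of the 20 cluster genes without it, several have annotated models that hold little beyond the coding sequence, such as Hist1h4k (312 bases), so that absence from the model says nothing of the RNA.

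Upstream of some of the H2B and H2A cluster genes lies a second shared element, the octamer ATTTGCAT bound by Oct-1. It is shown for Hist1h2bb, for Hist2h2bb, whose level was the highest of all members, and for H3f3b, the replacement variant that rose with DFO. The letters run along the gene's strand, and capitals mark the octamer or its reverse complement (RefSeq, GRCm38.p6).
Hist1h2bb, chr13:23746634-23746661, plus strand: tgagtctcttATTTGCATaaagcctttg
Hist2h2bb, chr3:96269642-96269669, plus strand: gtgaaacctcATTTGCATacaagctcta
H3f3b, chr11:116024561-116024588, minus strand: tcgttggtgtATGCAAATcagggttctg

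RefSeq promoters, 250 bases before to 50 after the start, were matched for 65 of 72 members. The octamer was found on either strand in 7 of 16 H2B and 6 of 15 H2A cluster genes, in 0 of the matched H1, H3 and H4 cluster genes, and in 532 of 27025 promoters overall (1.97%). Some H2A and H2B genes share the same site between them (Hist1h2ae with Hist1h2bg, and Hist1h2ah with Hist1h2bk). The pentamer CCAAT, which is not contained in the octamer but can share its first letters, was present on either strand in all 6 H1, 15 H2A, 16 H2B and 9 H3 cluster genes, in 3 of 11 H4 cluster genes and in 41.1% of all promoters.

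DFO lowered nearly the whole set of cluster genes in siControl cells. The test was limma over all genes, run on log2(FPKM + 0.1), with Benjamini-Hochberg adjustment. A gene is said to have risen or fallen at an adjusted p below 0.05 and is called when its fold change was also above 2. In siControl+DFO against siControl, 52 of 63 cluster genes were called lower and 0 higher, where 7.76% of all genes tested were called lower and 11.1% higher. At an adjusted p below 0.05 alone, 58 fell, where 25.7% of all genes fell. The other 5 were Hist1h1t, Hist1h2ao, Hist2h2aa1, Hist2h2be and Hist3h2ba, of which those outside the naming rule are named because they are the exceptions, after their values had been seen. The median log2 fold change of the cluster genes was -1.67, and that of all genes tested was -0.01. In 58 of 63 the DFO libraries all lay below the siControl libraries, where this held for 29.6% of all genes. Without siControl replicate 1, 49 of the 72 members were called in place of 56, where 18.8% of all genes were called in either direction.

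The marker gene Hist1h2bb, a core H2B gene, had an FPKM of 215, 194 and 197 in siControl and of 34.3, 27.7 and 29.1 in siControl+DFO. Every DFO library lay far below every siControl library. The log2 fold change was -2.73 (SE 0.32, adjusted p = 1.6e-05, limma), or 0.150 of the siControl level.

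H2B was the class with the lowest sum relative to siControl. Its cluster genes summed to 4703, 3402 and 3369 FPKM in siControl and to 895, 671 and 732 in siControl+DFO, a mean of 20.02% of siControl (22.6% without siControl replicate 1). Of 18 H2B cluster genes 16 were called lower, with a median log2 fold change of -2.41. Among its larger falls were Hist1h2bm (-2.80), Hist1h2bc (-2.79) and Hist1h2be (-2.51). Hist1h2bc had an FPKM of 277, 218 and 227 in siControl and of 31.8, 31.9 and 40.3 in siControl+DFO. Hist2h2be had a value above 0, at 0.99 (adjusted p = 0.066), and stood below 1 FPKM in all but 1 library. The other H2B gene not called was Hist3h2ba, at 0 in 7 of 12 libraries.

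Hist2h2bb alone held 55.5% to 59.1% of the H2B sum in siControl. Its FPKM was 2781, 1888 and 1888 in siControl and 480, 370 and 420 in siControl+DFO, with a log2 fold change of -2.35 (SE 0.20, adjusted p = 1.5e-06). All of its 75-base windows, the read length, also occur in the transcripts of Gm20628 on the opposite strand or Gm42743 on the same strand. On the same strand alone 49.8% of its windows are shared. Part of its reads could therefore belong to these transcripts. Without Hist2h2bb the H2B sum in siControl+DFO was 20.9% of siControl, close to the value with it.

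H2A cluster genes summed to 29.7% of siControl (33.5% without siControl replicate 1), and 14 of 16 were called lower. Hist1h2ak, the H2A gene with the highest level, went from 488, 298 and 415 to 146, 98.2 and 131 FPKM. Its log2 fold change was -1.67 (SE 0.21, adjusted p = 3.8e-05). Hist1h2ad, a low H2A gene, had an FPKM of 10.9, 12.6 and 10.8 in siControl and of 4.79, 2.04 and 0 in siControl+DFO. Its fitted log2 fold change of -3.50 (adjusted p = 0.047) rested on that 0: it was -1.83 (adjusted p = 0.203) without siControl+DFO replicate 3, and the call was lost in 12 of the alternatives, among them each siControl library left out in turn. The members not called were Hist1h2ao and Hist2h2aa1, both of which have near-identical copies.

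The sums of the remaining classes stood higher relative to siControl. H3 cluster genes summed to 38.9% of siControl and 10 of 11 were called lower, H4 genes to 41.7% with 9 of 12, and H1 genes to 49.99% with 3 of 6. Without siControl replicate 1 these sums were 44.8%, 48.4% and 57.3% of siControl, in that order. The difference between classes was not tested. Hist1h4d, an H4 gene, had an FPKM of 1067, 697 and 844 in siControl and of 527, 430 and 375 in siControl+DFO, without overlap. It fell by 0.96 on the log2 scale (adjusted p = 0.00027), just short of a 2-fold change. Hist1h1c and Hist1h1e, genes of the linker histone H1 that binds DNA between nucleosomes, fell by 0.66 and 0.64, while Hist1h1d fell by 1.22. Hist1h1t, the testis H1, was listed at 0 in 5 libraries and did not pass the test (adjusted p = 0.99).

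**Figure D1:**
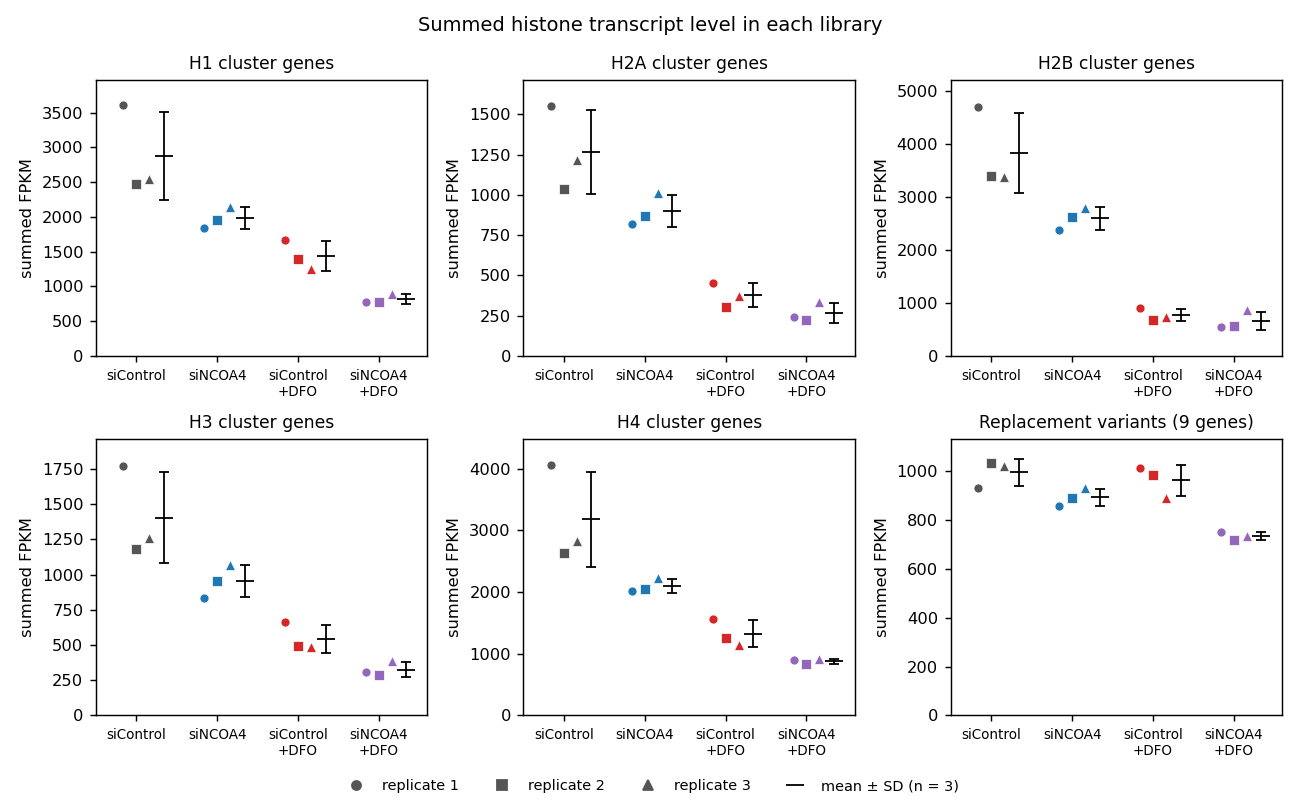
Summed FPKM of the cluster genes of each class and of the 9 replacement variants (vertical axes, starting at 0) in each library of the 4 groups; points are libraries and bars the mean ± SD (n = 3). H2B sums with DFO lay between 549 and 895, against 3369 to 4703 in siControl, and the replacement sum of siControl+DFO (890 to 1012) overlapped that of siControl (932 to 1032).

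The presence of the sequence elements was set beside these changes as a description. Of the 43 cluster genes with a stem-loop in the annotated model 33 were called lower with DFO (median log2 fold change -1.60), and of the 20 without it 19 (median -1.75). The 7 H2B genes with the octamer had a median of -2.69 and the 9 matched H2B genes without it -2.24. For H2A the order was the opposite, with -1.76 for 6 genes with it and -2.37 for 9 without.

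Replacement variants moved in both directions with DFO. Of 9, 3 were called lower and 1 higher, where 7.76% of all genes were called lower and 11.1% higher. At an adjusted p below 0.05 alone 6 fell and 1 rose, where 25.7% of all genes fell and 27.7% rose. Their sum was 932, 1032 and 1022 FPKM in siControl and 1012, 984 and 890 in siControl+DFO. These ranges overlap, and the ratio of the means was 96.7%.

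H3f3b, which encodes the variant H3.3, rose. Its FPKM was 252, 284 and 279 in siControl and 614, 590 and 547 in siControl+DFO, so that the lowest DFO library stood above the highest siControl library. The log2 fold change was 1.10 (SE 0.08, adjusted p = 4.9e-07). Of its 75-base windows 4.26% occur elsewhere in the annotated transcripts.

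H3f3a encodes the same H3.3 protein from another gene and moved the other way. It went from 51.2, 61.7 and 76.7 to 43.9, 33.3 and 33.5 FPKM, a log2 fold change of -0.77 (SE 0.18, adjusted p = 0.0035). The sum of both H3.3 genes was 335 ± 28.2 FPKM in siControl and 620 ± 38.5 in siControl+DFO (mean ± SD, n = 3).

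H1f0, the H1.0 linker variant, fell. It had an FPKM of 216, 246 and 228 in siControl and of 74.1, 79.8 and 67.8 in siControl+DFO, without overlap. The log2 fold change was -1.64 (SE 0.08, adjusted p = 1.6e-08).

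Among the H2A variants, H2afx fell by 1.11 (adjusted p = 1.2e-05), from 109, 78.4 and 78.2 FPKM to 41.0, 42.8 and 37.3. H2afy2, which encodes macroH2A2, fell by 1.62 (adjusted p = 0.00054) at a level of 5.54 to 6.49 FPKM in siControl. The H2A.Z genes fell by less than 2-fold: H2afv by 0.89 (adjusted p = 4.4e-06) and H2afz by 0.72 (adjusted p = 0.00026). H2afz, the most abundant H2A variant, had an FPKM of 202, 259 and 262 in siControl and of 157, 151 and 129 in siControl+DFO. H2afy (macroH2A1, -0.15, adjusted p = 0.27) and H2afj (0.22, adjusted p = 0.22) did not pass the test.

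**Figure D2:**
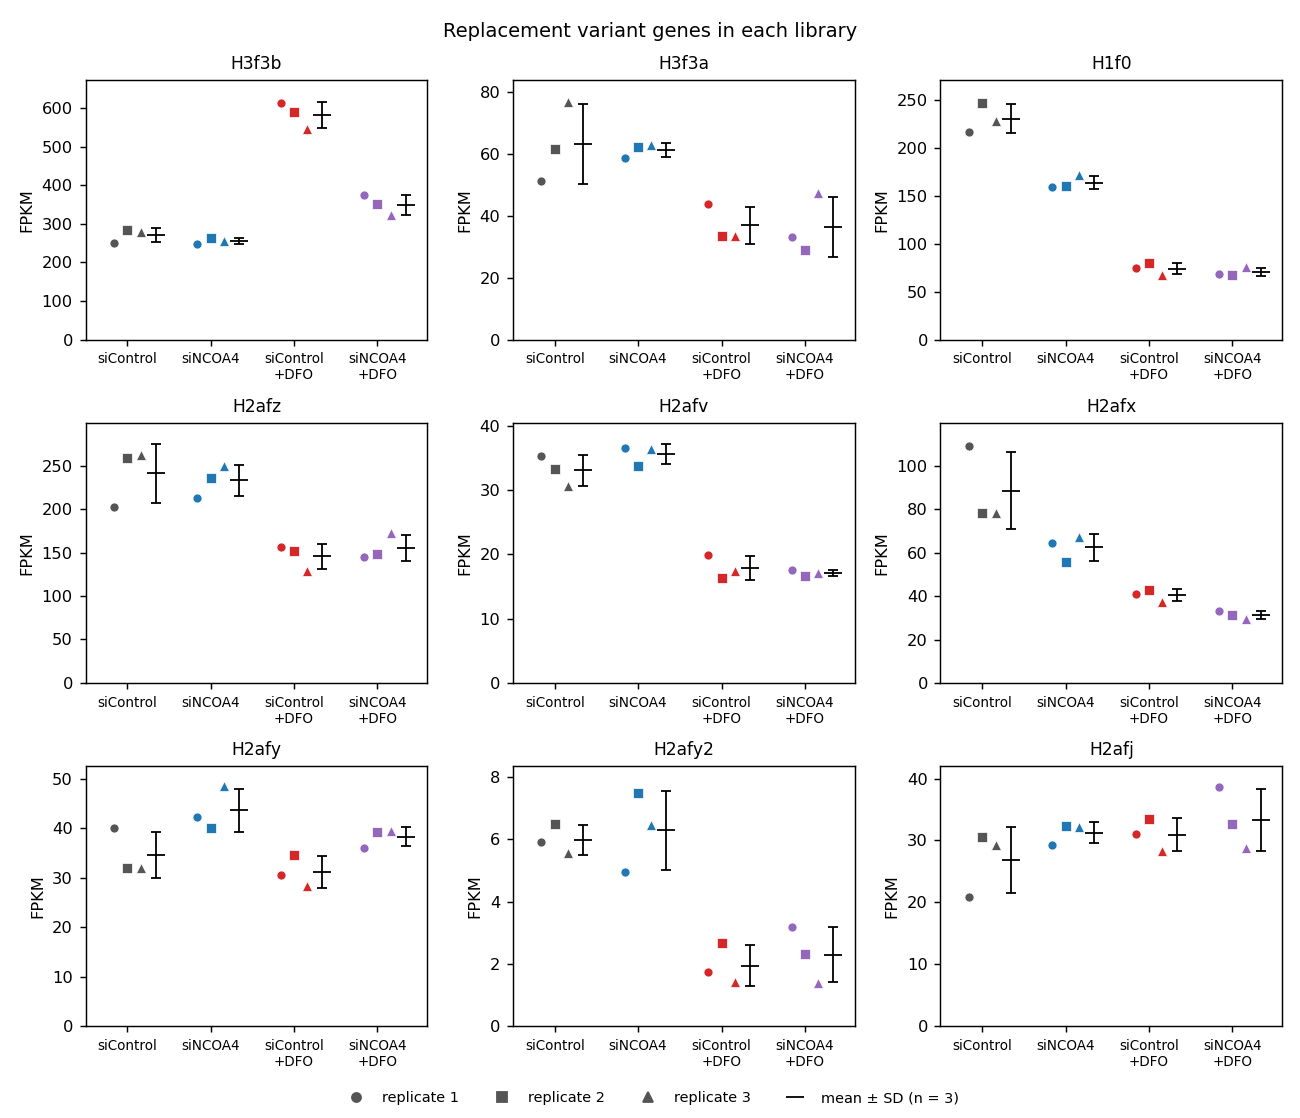
FPKM (vertical axes, starting at 0) of each replacement variant gene in each library of the 4 groups; points are libraries and bars the mean ± SD (n = 3). H3f3b stood at 547 to 614 in siControl+DFO against 252 to 284 in siControl, whereas H1f0 was at 67.8 to 79.8 against 216 to 246.

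The makeup of the histone transcripts was different with DFO. Replacement variants held 14.6%, 22.7% and 22.1% of the summed H3 FPKM in siControl and 49.9%, 55.9% and 54.4% in siControl+DFO. H3f3b alone accounted for 50.3% ± 3.30 of the H3 sum with DFO (mean ± SD, n = 3). The replacement share of H2A was 25.8% ± 4.43 in siControl and 41.9% ± 5.38 in siControl+DFO. For H1 it was 7.65% ± 1.78 and 4.94% ± 0.606, lower with DFO, since H1f0 was at 32.1% of its siControl level and the H1 cluster sum at 49.99%. Within the cluster sum, the part held by H2B was 30.6% in siControl and 17.2% in siControl+DFO, and that of H1 was 22.9% and 32.3%. These shares are sums over chosen genes and carry no test.

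**Figure D3:**
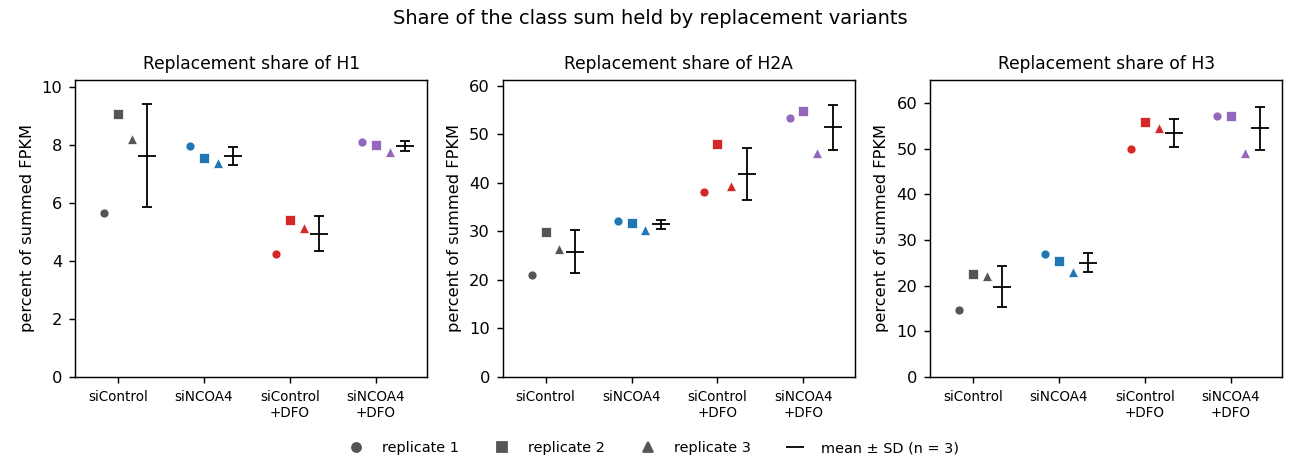
Percentage of the summed FPKM of H1, H2A and H3 held by replacement variants (vertical axes, starting at 0) in each library of the 4 groups; points are libraries and bars the mean ± SD (n = 3). The H3 share was 14.6% to 22.7% in siControl and 49.9% to 55.9% in siControl+DFO.

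Knockdown of Ncoa4 at normal iron went with lower cluster gene levels of a smaller size. In siNCOA4 against siControl 1 cluster gene was called lower and 1 higher, where 0.973% of all genes were called lower and 0.805% higher. At an adjusted p below 0.05 alone, 13 cluster genes fell and 1 rose, where 7.21% of all genes fell and 4.52% rose. The median log2 fold change over 63 cluster genes was -0.56 (all genes 0.00), and 61 had a negative value. The summed fibroblast or mesenchymal markers were also below siControl in every siNCOA4 library. Of these 5 markers 3 had a negative value and 2 fell, where 7.21% of all genes fell. The 2 were Col1a1 at -0.78 (adjusted p = 0.0061) and Col1a2 at -0.79 (adjusted p = 0.0024). The 5 had a median log2 fold change of -0.22 and ranged up to 0.09. Their part in the lower cluster gene levels was not tested. In 41 of 63 the siNCOA4 libraries lay below all siControl libraries, where this held for 17.6% of all genes.

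The classes were lower by a like amount. Sums in siNCOA4 were 68.9% of siControl for H1, 71.0% for H2A, 67.8% for H2B, 67.9% for H3 and 66.1% for H4. These values depended on siControl replicate 1. Without it they were 78.9%, 79.9%, 76.6%, 78.3% and 76.8%, the log2 ratio of the whole cluster sum went from -0.56 to -0.36, and members with an adjusted p below 0.05 went from 16 to 5, where 11.7% of all genes had one. That count was 3, 2 and 9 without siNCOA4 replicates 1, 2 and 3.

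Hist1h4d had an FPKM of 519, 533 and 643 in siNCOA4, below the siControl range of 697 to 1067, and fell by 0.61 (adjusted p = 0.028). Hist1h1d fell by 0.58 (adjusted p = 0.024) and Hist1h3c by 0.51 (adjusted p = 0.022). All 3 lost the threshold without siControl replicate 1 (adjusted p = 0.090, 0.053 and 0.080, in that order), without siNCOA4 replicate 1 (0.090, 0.070 and 0.079), without siNCOA4 replicate 2 (0.098, 0.088 and 0.076) and with quantile normalization (0.077, 0.122 and 0.077). Hist1h4d lost it without siControl replicate 3 as well (adjusted p = 0.061). Hist1h2bb had an FPKM of 109, 149 and 143, also below siControl, and did not pass the test (-0.61, adjusted p = 0.25).

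The called members in this comparison were Hist1h2ap, lower, and Hist1h2ao, higher. These H2A genes share 92.6% and 93.1% of their 75-base windows, and reads could be assigned to either. Hist1h2ao was near 0 in siControl replicates 1 and 3, at 2.29 FPKM in replicate 2, and at 7.41, 7.62 and 4.31 in siNCOA4. Summed, the pair stood at 23.4, 18.6 and 12.9 FPKM in siControl and 9.80, 10.9 and 16.4 in siNCOA4, which overlap. The fitted log2 fold change of Hist1h2ao, 4.46, was 2.29 with a pseudocount of 1 and 6.67 with 0.01. With the compared groups fitted alone, 0 members were called by limma, and 9 had an adjusted p below 0.05. The call of Hist1h2ap was lost in 13 of the alternatives, with adjusted p-values up to 0.16, including each siControl library and siNCOA4 replicates 1 and 2 left out. That of Hist1h2ao was lost in 2, at 0.055 without siNCOA4 replicate 2 and 0.079 with the compared groups alone.

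Among the replacement variants, 2 of 9 fell with Ncoa4 siRNA and 0 were called, where 7.21% of all genes fell. H1f0 went to 159, 160 and 171 FPKM, a log2 fold change of -0.49 (SE 0.08, adjusted p = 0.0025), and H2afx to 64.3, 55.5 and 67.5, also -0.49 (adjusted p = 0.025). H2afx lost the threshold without siControl replicate 1 (adjusted p = 0.061), siNCOA4 replicate 1 (0.054) or siNCOA4 replicate 2 (0.104). H3f3b had an FPKM of 249, 263 and 255 and overlapped siControl (-0.09, adjusted p = 0.55; above 0 with quantile normalization). The other 6 ranged from -0.04 to 0.34.

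**Figure D4:**
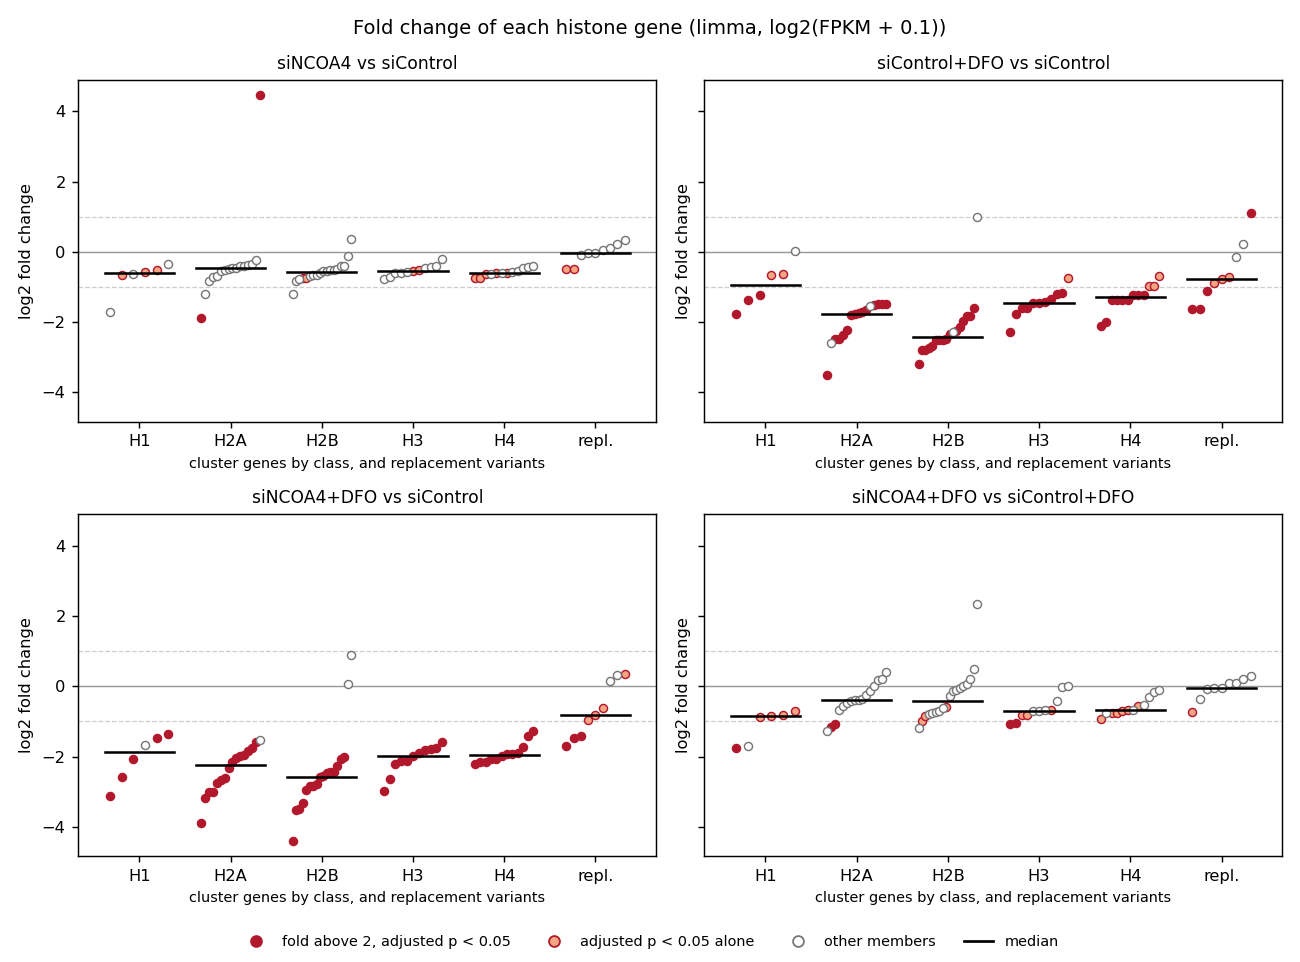
Log2 fold change (vertical axes) of each histone gene in 4 comparisons, by class of cluster gene and for replacement variants (repl.); dark points were called, pale filled points had an adjusted p below 0.05 alone, and bars are medians. With DFO 52 of 63 cluster genes were called lower, and the replacement variants spread from -1.64 to 1.10.

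The sum of the cluster genes was lowest with DFO and Ncoa4 siRNA together (2943 ± 389 FPKM, against 12546 ± 2736 in siControl, mean ± SD, n = 3). In siNCOA4+DFO against siControl 59 of 63 cluster genes were called lower and 0 higher, where 5.93% of all genes were called lower and 9.24% higher. The median log2 fold change was -2.13 (all genes 0.01). Sums were 28.3% of siControl for H1, 21.1% for H2A, 17.2% for H2B, 23.1% for H3 and 27.7% for H4. Without siControl replicate 1 they were 32.45%, 23.69%, 19.45%, 26.63% and 32.17%, in that order. Of the replacement variants 3 were called lower (H1f0 at -1.71, H2afx at -1.48 and H2afy2 at -1.41), and 1 rose, H3f3b by 0.36 (adjusted p = 0.0032), where 25.4% of all genes rose.

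Set against DFO alone, which shows what Ncoa4 siRNA added under iron restriction, 5 of 63 cluster genes were called lower and 0 higher, where 1.01% of all genes were called lower and 1.07% higher. These were Hist1h1a, Hist1h2ab, Hist1h2ak, Hist1h3a and Hist1h3d. At an adjusted p below 0.05 alone, 21 fell, against 10.2% of all genes. The called count was 2 without siControl+DFO replicate 1 and 8 without replicate 3 of either DFO group.

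Hist1h1a, a linker histone gene of cycling cells, had an FPKM of 57.4, 49.7 and 41.3 in siControl+DFO and of 19.7, 9.16 and 16.7 in siNCOA4+DFO. The highest library with both treatments stood below the lowest with DFO alone. The log2 fold change was -1.76 (SE 0.24, adjusted p = 0.00093). Hist1h3d, an H3 gene, went from 95.5, 71.6 and 79.3 to 37.9, 39.4 and 41.2 FPKM, with a log2 fold change of -1.04 (SE 0.15, adjusted p = 0.0011).

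The share of genes that fell ran from most of the H1 genes to few of the H2A genes, where 10.2% of all genes fell. Of the H1 genes 5 of 6 fell (median -0.85), of the H3 genes 5 of 11 (median -0.69), of the H4 genes 6 of 12 (median -0.69), of the H2A genes 2 of 16 (median -0.40) and of the H2B genes 3 of 18 (median -0.42). The H1 sum with both treatments was 56.7% of that with DFO alone, and the groups did not overlap. The H2B sum was 86.0%, and the groups overlapped. Hist1h2bc had an FPKM of 31.8, 31.9 and 40.3 with DFO alone and 29.6, 31.8 and 44.7 with both, a log2 fold change of 0.01 (SE 0.15, adjusted p = 0.97). The difference between classes was not tested.

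By locus, 21 of 52 genes of the Hist1 cluster fell in this comparison by limma, and 0 of 8 of the Hist2 cluster (0 at an unadjusted p below 0.05 as well). Of all genes tested 10.2% fell. The Hist2 genes ranged from -0.40 to 0.40, with a median of -0.06. The Hist1 and Hist2 counts were compared after the values had been seen and were not tested against each other.

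H3f3b was the replacement variant that differed between the DFO groups. It had an FPKM of 375, 351 and 322 in siNCOA4+DFO, below the 547 to 614 of DFO alone and above the siControl range of 252 to 284. Its log2 fold change was -0.74 (SE 0.08, adjusted p = 0.00029). The other 8 replacement variants did not pass the test and ranged from -0.36 to 0.30. The replacement sum was 76.3% of that with DFO alone, and on the log2 scale its ratio of -0.39 became 0.02 when H3f3b was left out.

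The interaction asks whether the effect of Ncoa4 siRNA differed with and without DFO. Of 72 members 1 passed at an adjusted p below 0.05, H3f3b at -0.65 (SE 0.12, adjusted p = 0.018), where 2.1% of all genes passed. Over the alternatives its adjusted p ran from 0.012 to 0.056. It was 0.052 without siNCOA4 replicate 2, 0.051 without siNCOA4 replicate 3 and 0.056 without siControl+DFO replicate 1. Of the cluster genes 0 of 63 passed (limma), and 5 had an unadjusted p below 0.05. Their median interaction was 0.00. Hist1h1a had the value -1.12 (SE 0.34, adjusted p = 0.11).

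In siNCOA4 cells DFO had an effect of the same direction on the cluster genes. In siNCOA4+DFO against siNCOA4 54 of 63 cluster genes were called lower, where 3.83% of all genes were called lower, and H3f3b rose by 0.45 (adjusted p = 0.00093), as 23.1% of all genes did. This comparison and the others share libraries of the groups involved, so their values stand side by side without a count of agreement.

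Transcripts of proteins that make, process and store histones were examined from lists of genes by role. The first held 35 genes of histone mRNA transcription and processing, of which 33 were tested. With DFO in siControl cells 13 rose and 6 fell, with a median log2 fold change of 0.16, where 27.7% of all genes rose and 25.7% fell. Ccne2, a cyclin of S phase entry, rose most, from 8.28, 8.86 and 8.31 FPKM to 34.0, 31.6 and 32.1 (log2 fold change 1.93, SE 0.10, adjusted p = 2.6e-08). Dbr1 is counted in this list although no role of it in histone mRNA is shown here. It rose by 1.28, and Zcchc6, a uridylyl transferase, rose by 0.99.

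Npat, the coactivator of histone genes, rose with DFO from 9.53, 8.22 and 8.48 FPKM to 17.96, 15.2 and 15.4 (log2 fold change 0.88, adjusted p = 1.7e-05). Casp8ap2, a component of the histone locus body, rose by 0.80, Hinfp, the H4 promoter factor, by 0.84, and Slbp by 0.61. Cpsf3, the nuclease that cuts histone pre-mRNA, fell by 0.72 (adjusted p = 0.0003). These 5 genes were singled out after their values had been seen.

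With Ncoa4 siRNA alone 3 of the 33 rose and 1 fell, where 4.52% of all genes rose and 7.21% fell. Ccne1 fell by 1.31 (adjusted p = 6.7e-05), from 17.7, 16.8 and 17.6 FPKM to 7.32, 5.86 and 7.82. Ccne2 rose by 0.77 (adjusted p = 0.00048), and Snrpe, a core protein of spliceosomal particles, by 0.58, a result lost in 6 of the alternatives (adjusted p = 0.064 to 0.11 without siControl replicate 1 or 2 or siNCOA4 replicate 2 or 3).

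**Figure D5:**
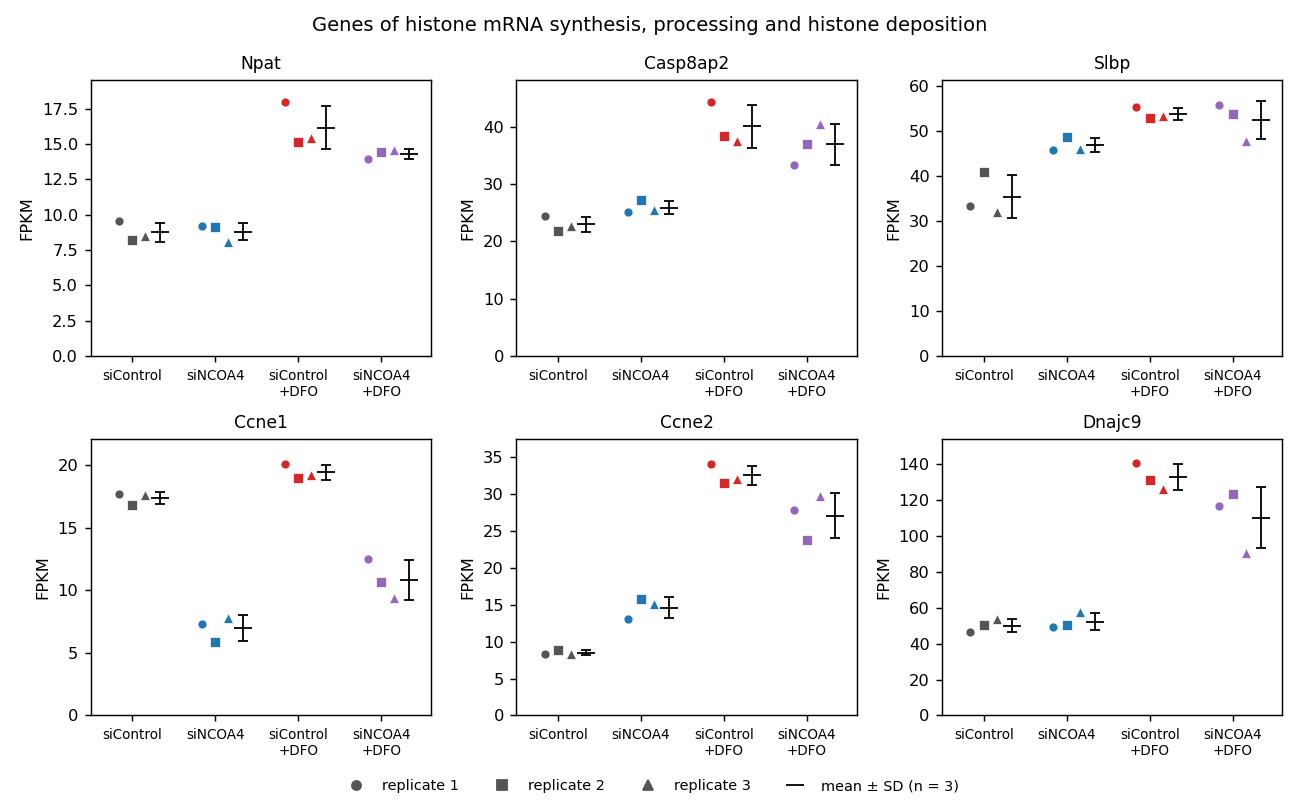
FPKM (vertical axes, starting at 0) of 5 genes of histone mRNA synthesis and processing (Npat, Casp8ap2, Slbp, Ccne1 and Ccne2) and of the chaperone gene Dnajc9 in each library of the 4 groups; points are libraries and bars the mean ± SD (n = 3). Npat stood at 15.2 to 17.96 in siControl+DFO against 8.22 to 9.53 in siControl, and Ccne1 at 5.86 to 7.82 in siNCOA4 against 16.8 to 17.7.

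Of 29 genes for histone chaperones and deposition, all tested, 6 rose and 6 fell with DFO (median -0.01), a share in each direction below the 27.7% and 25.7% of all genes. Dnajc9, a chaperone of H3 and H4, rose by 1.404 (adjusted p = 6.7e-07) and Spty2d1 by 1.88 (adjusted p = 1.2e-06). Asf1b, which carries new H3 and H4, fell by 0.67 (adjusted p = 0.00019). With Ncoa4 siRNA alone 0 rose and 5 fell, where 4.52% of all genes rose and 7.21% fell. Among the 5 were Hira (-0.66, adjusted p = 0.0012) and Ubn1 (-0.86, adjusted p = 5.4e-05), subunits of the complex that deposits H3.3. Ipo4 fell as well, from 10.8, 11.2 and 10.6 FPKM to 8.37, 7.92 and 8.15, a result lost in 4 of the alternatives. In siNCOA4+DFO against DFO alone Hira was at -0.64 (adjusted p = 0.0015) and Ubn1 at -0.48 (adjusted p = 0.0025), both lower.

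Of 15 S phase reference genes 7 rose and 5 fell with DFO, with a median log2 fold change of 0.14, where 27.7% of all genes rose and 25.7% fell. Rrm2, the small subunit of ribonucleotide reductase, rose by 1.55 (adjusted p = 7.1e-08), from 44.3, 46.6 and 43.4 FPKM to 132, 136 and 127. Cdt1 rose by 1.04 and Cdc6, which loads the replicative helicase with it, by 0.99. Gins2 fell by 0.98 and Tk1, thymidine kinase, by 0.91. With Ncoa4 siRNA alone 0 of 15 rose and 4 fell, where 4.52% of all genes rose and 7.21% fell. Mcm7 went from 107, 109 and 111 FPKM in siControl to 69.4, 69.5 and 75.2 in siNCOA4. Tk1 also fell, a result lost in 9 of the alternatives. Gins2 was at 47.6, 43.6 and 56.2 FPKM in siNCOA4, above the siControl libraries, and did not pass the test. With both treatments against DFO alone 8 of 15 fell and 1 rose, where 10.2% of all genes fell and 6.22% rose.

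Of 6 histone genes outside the rule 1 was tested. Cenpa, the H3 variant of centromeres, went from 32.6, 40.5 and 33.1 FPKM to 23.4, 26.1 and 28.5 with DFO (-0.44, adjusted p = 0.033, lost in 5 of the alternatives: 0.127 without siControl replicate 2, 0.110 and 0.068 without siControl+DFO replicates 1 and 2, and 0.054 with no filter or no trend) and to 20.3, 18.5 and 12.8 with both treatments (-1.06, adjusted p = 0.00015).

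Many members are close copies, and this limits what a single gene's value means. Of the 72 members 66 share at least 1 window of 75 bases with another annotated transcript, counted on either strand, and 29 share over 50% of them. On the same strand alone these counts were 63 and 25. The limit of 50% used below is that on either strand. The class sums rest less on how reads were split between copies of one class. With members that share under 50% of their windows alone, 35 cluster genes and 8 replacement variants, the log2 ratio of the cluster sum was -0.55 with Ncoa4 siRNA, -1.31 with DFO and -1.98 with both, against siControl.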

How the data were processed

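Total RNA of HT22 cells was sequenced (75-base reads, stranded total RNA kit) in 12 libraries of 4 groups, 3 libraries each. The authors deposited 1 table per library with FPKM values for 24347 gene entries; the tool that computed FPKM is not given in the sources used here. The submitters' processing notes name Trimmomatic 0.33, FastQC, HISAT2 2.1.0, featureCounts, edgeR and mm10. Groups came from the labels. The 4 entries that share a name with another were left out. FPKM carries no totals, so depth was read only in relative terms.

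The 11924 genes that reached 0.5 FPKM in 3 or more libraries entered the fit on log2(FPKM + 0.1). The added 0.1 shrinks a ratio between low values. Where single libraries are at or near 0, the fitted fold change depends on the value added and can be large, as for Hist1h2ad and Hist1h2ao. A limma 3.58.1 model (R 4.3.3) with a trend and 1 mean per group covered all 12 libraries. P-values were adjusted by Benjamini-Hochberg over all genes, comparisons share libraries, and a call needed a fold above 2 and an adjusted p below 0.05. On simulated data 97.5% to 99.5% of 200 changed genes were recovered, depending on the comparison, with 1 to 8 false calls. Recovery of small changes or of low genes was not tested. An exact permutation test of 3 against 3 cannot go below 0.1 and was not used. Sums and shares over members carry no test.

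The members and gene lists were chosen with earlier results of these data known. The genes named were the markers Hist1h2bb, H2afz and H3f3b, every replacement variant, the 3 cluster genes per class with the highest mean FPKM, up to 3 called members per comparison and direction with the largest change (mean FPKM of at least 1), and per supply list the 3 largest changes with DFO and with Ncoa4 siRNA. Stem-loops and windows of 75 bases were read from GENCODE M21 transcripts (GRCm38) and promoters from RefSeq (GRCm38.p6), matched by symbol or synonym. Alternatives were other pseudocounts (1 and 0.01), no filter or a filter at 2 FPKM, median-of-ratios scaling, quantile normalization, moderation with no trend, a replicate block, separate fits of each pair of groups, members with few shared windows, mean log2 values in place of sums, and each library left out. Sums without Hist2h2bb, H3f3b or H2afx were added after seeing the data. Tables were handled in Python 3.11.15 with pandas 2.3.3.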

Additional observations from a re-analysis of the deposited data

Results flagged for a closer look

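The effect of Ncoa4 siRNA on H3f3b, a gene of the variant H3.3, differed with and without DFO. The interaction was -0.65 on the log2 scale (adjusted p = 0.018, limma). Ncoa4 siRNA gave -0.09 at normal iron and -0.74 with DFO. The interaction was no longer past the threshold without siNCOA4 replicate 2 (-0.63), without siNCOA4 replicate 3 (-0.65) or without siControl+DFO replicate 1 (-0.62).

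Ccne2, a cyclin gene from the list of histone mRNA transcription and processing, also had an interaction past the threshold, at -1.04 (adjusted p = 0.0044, limma). Ncoa4 siRNA gave 0.77 at normal iron and -0.27 with DFO, where it did not pass the test (adjusted p = 0.089).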

How the results depend on the processing

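Counts of members called with DFO moved little, from 49 to 59 over all settings for siControl+DFO against siControl, from 60 to 63 for siNCOA4+DFO against siControl and from 55 to 58 for siNCOA4+DFO against siNCOA4. Of 191 results for named genes, 134 kept their direction and their side of the threshold in every setting, and 22 that passed the test lost it in at least 1. The cause of the shifts below was not tested. FPKM without totals leaves the counting error of low members unknown.

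Members called in siNCOA4 against siControl were 2. They were 1 with a pseudocount of 0.01, with no filter, with the replicate block and with moderation without a trend, 0 with the compared groups alone and 0 to 2 with 1 library left out, where 0 came without siNCOA4 replicate 2. Members with an adjusted p below 0.05 in that comparison were 16, and 9 with no filter, 6 with quantile normalization, 9 with the compared groups alone, 7 without a trend and 2 to 22 with 1 library left out. Members called in siNCOA4+DFO against siControl+DFO were 5, with 3 under quantile normalization and 2 to 8 with 1 library left out. Members past the interaction test were 1, with 2 at a pseudocount of 1 and 0 to 2 with 1 library left out: 2 without siControl replicate 1 or 2, and 0 without siNCOA4 replicate 2, siNCOA4 replicate 3 or siControl+DFO replicate 1. Correlations of the deviations of same-numbered libraries ran from -0.13 to 0.12, and those of differently numbered libraries from -0.17 to 0.16. Whether same-numbered libraries were handled together cannot be read from these values.

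The log2 ratio of the cluster sum in siNCOA4+DFO against siNCOA4 was -1.53, and the mean of log2 values gave -1.71. For the replacement sum, siNCOA4 against siControl was -0.16, and -0.0624 with quantile normalization and -0.045 as a mean of log2 values. DFO against siControl was -0.05, and 0.11 over members with few shared windows, -0.62 as a mean of log2 values and -0.93 without H3f3b. Among the replacement variants, the members with few shared windows leave out H2afz alone. H2afz shares 54.0% of its windows on either strand and 27.6% on the same strand. Both treatments against siControl gave -0.44, and -0.31 with quantile normalization, -0.68 as a mean of log2 values, -0.37 without H2afx and -0.91 without H3f3b. Both against DFO alone gave -0.39, and -0.25 with quantile normalization, -0.50 over members with few shared windows, -0.064 as a mean of log2 values and 0.022 without H3f3b. Both against siNCOA4 gave -0.28, and -0.19 over members with few shared windows, -0.64 as a mean of log2 values and -0.73 without H3f3b.

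The sign of some single genes turned. With quantile normalization, siNCOA4 against siControl was 0.084 for H2afz, 0.046 for H3f3b and 0.022 for H3f3a. Both against DFO alone was 0.065 for H1f0, 0.0073 for H2afv, 0.084 for H3f3a, 0.067 for Hist2h2bb, 0.0062 for Hist4h4, -0.14 for Hist1h2ao and 0.056 for Hist1h2bm. With 1 library left out, siNCOA4 against siControl ran from -0.16 to 0.024 for H2afz, from -0.078 to 0.21 for H2afy2 and from -0.17 to 0.13 for H3f3a. Both against DFO alone ran from -0.011 to 0.20 for H2afj, -0.12 to 0.021 for H2afv, -0.057 to 0.50 for H2afy2, -0.24 to 0.12 for H3f3a, -0.11 to 0.48 for Hist2h2ac, -0.36 to 0.015 for Hist2h2bb, -0.10 to 0.36 for Hist1h2be, -2.06 to 1.08 for Hist1h2ad, -0.42 to 0.31 for Hist1h2bm and -0.17 to 0.13 for Hist1h2bc. Both against siNCOA4 ran from -0.028 to 0.19 for H2afj. Hist1h2ao ran from -2.29 to 6.2e-05 with DFO and from -2.29 to 0.00056 with both treatments.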
